A study of Mus musculus with 9 samples.

Results

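RNA of lung endothelial cells was compared between Notch1f/f mice and WT mice. Each genotype gave 3 libraries, which makes 6 of the 9 libraries of the series, and they were chosen by genotype label alone, with no measured value. The mice were C57BL/6 adults aged 6 weeks. Cells with CD31 on the surface and without CD45 or uptake of the dye DAPI were sorted from the lung, and total RNA depleted of ribosomal RNA was sequenced. In the usual notation, f/f marks a gene whose copies on both chromosomes are flanked by loxP sites, so that a recombinase can remove the stretch between them. The sources used here do not give which recombinase the Notch1f/f mice carried, what drove it, or whether the WT mice carried it. The remaining 3 libraries, labelled DNMAML after a dominant-negative form of Mastermind-like that blocks transcription by Notch receptors, entered the same fit and served for direct tests against Notch1f/f. The labels give n = 3 per condition without saying that each library was a separate mouse, so a p-value reflects the spread of these libraries alone, which may be technical.

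Notch receptors are single-pass proteins that are cut when a ligand on a neighbouring cell binds them. The freed intracellular part enters the nucleus, joins the DNA-binding protein RBPJ and a Mastermind-like protein, and switches on targets such as the Hes and Hey repressors. In vessels, Notch is known for supporting arterial identity, for holding back tip cell behaviour and for keeping endothelial cells out of the cell cycle. Pericytes and smooth muscle cells use Notch too, with Notch3 as their main receptor.

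The libraries held 15522100 to 20080217 counts in WT and 18226695 to 21820680 in Notch1f/f. Of 19486 genes tested, 100 were called higher in Notch1f/f (0.513% of genes tested) and 63 lower (0.323%), where a call is a Benjamini-Hochberg adjusted p below 0.05 in edgeR's quasi-likelihood test. A further measure used below is whether the 3 Notch1f/f libraries all lie above, or all below, the 3 WT libraries, which held for 8.5% and 9.33% of genes tested. It held for each of the 100 higher and 63 lower genes, so for a called gene it adds no further support. Higher genes had a median of 11.8 CPM (counts per 1000000 counts of the scaled library) in WT and 52.6 CPM in Notch1f/f, and 53 of them differed by more than 4-fold. Lower genes started from a higher level, with a median of 54.2 CPM in WT and 15.4 CPM in Notch1f/f, and 23 of them differed by more than 4-fold. Protein-coding genes made up 155 of the 163 called genes. The endothelial genes Pecam1 and Cdh5, which encode CD31 and VE-cadherin, were at 3604, 3982 and 3870.1 CPM and 6142, 6656 and 6625 CPM in WT and at 3429.7, 3619.9 and 4353 CPM and 5971, 5366 and 6497 CPM in Notch1f/f, so the defining markers of the sorted cell type were high in each library.

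The libraries of a genotype were not alike. Rank correlation across genes was 0.949 to 0.965 between WT libraries, 0.931 to 0.942 between Notch1f/f libraries and 0.918 to 0.954 between the genotypes. Of the 100 higher genes, 70 were highest in Notch1f/f replicate 2, 19 in replicate 3 and 11 in replicate 1, and of the 63 lower genes 42 were lowest in replicate 2. Over all genes tested with a difference above 0, replicate 2 was the highest Notch1f/f library for 39.8%, and over those below 0 it was the lowest for 49.3%. Leaving out 1 library moved the numbers of calls strongly: 8 higher and 5 lower without WT replicate 1, 11 and 7 without WT replicate 2, 23 and 24 without WT replicate 3, while dropping Notch1f/f replicates 1, 2 and 3 gave 369 and 161, 25 and 11, and 132 and 159. Dropping a DNMAML library gave 78 and 47, 162 and 160, and 81 and 46 for replicates 1, 2 and 3. The 163 called genes kept their direction wherever they were tested in these fits. Their groups did not overlap in the full data, so leaving out a library could hardly reverse them. Transcripts of 4 Y-linked genes summed to 254 CPM in WT replicate 2 and 308 CPM in Notch1f/f replicate 1. They were below 1 CPM in the other libraries of both genotypes, so each of these held 1 library with Y-linked signal. In DNMAML replicates 1 and 3, which entered the fit, the sums were 251 and 249 CPM. Notch1f/f replicate 1 stood apart in other sums too. Immediate early genes summed to 4488, 8328 and 8621 CPM in Notch1f/f replicates 1, 2 and 3. Ribosomal protein genes summed to 3923, 8616 and 9820 CPM in the same order. For WT replicates 1, 2 and 3 the immediate early sums were 13800, 4434 and 10340 CPM. For DNMAML they were 10530, 3354 and 9854 CPM, lowest in replicate 2, which had no Y-linked signal. What sets Notch1f/f replicate 1 apart from replicates 2 and 3 was not tested.

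**Figure D1:**
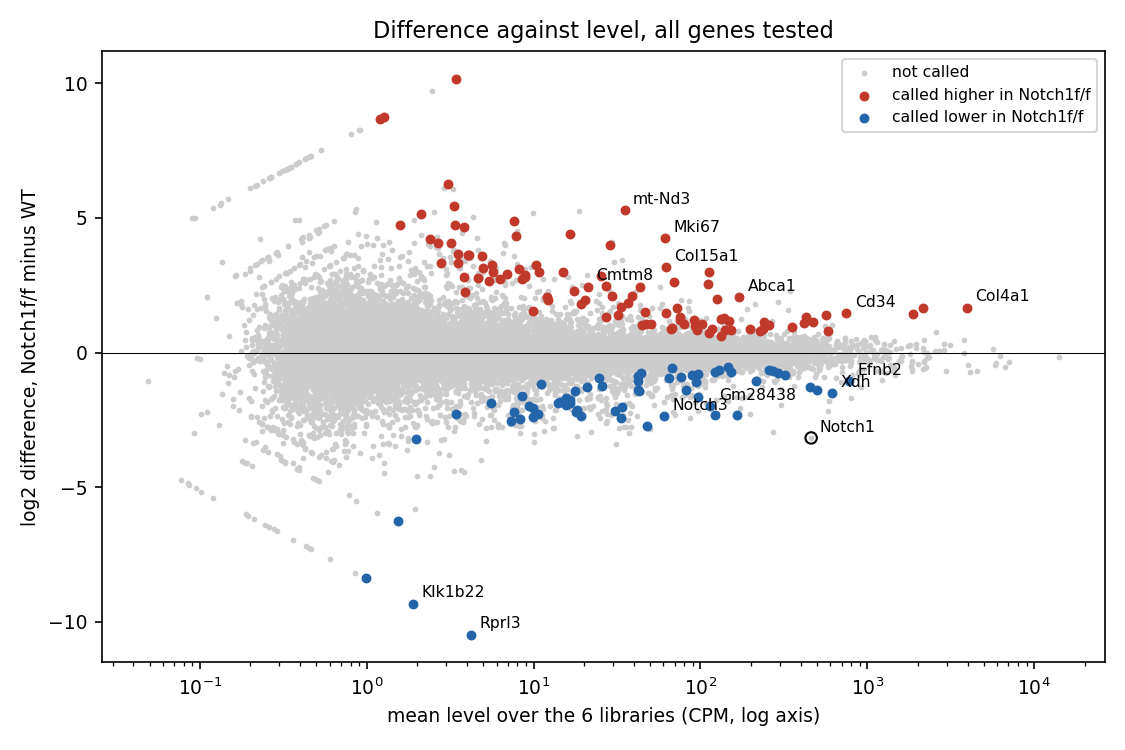
The vertical axis shows the log2 difference of each of the 19486 genes, Notch1f/f minus WT, against its mean level over the 6 libraries in CPM on a log axis, with 100 genes called higher in red and 63 called lower in blue. The circle marks Notch1, at -3.17 among the largest differences of genes near its level and yet in grey, since its adjusted p was above the threshold; straight lines of points at the left are genes with 0 counts in a whole group, whose fitted difference is no bound.

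The receptor named by the genotype was low in each Notch1f/f library. Notch1 (ENSMUSG00000026923, chromosome 2, 26347915 to 26406675, GRCm39) was at 766, 909 and 811 CPM in WT and at 70.8, 29.5 and 176 CPM in Notch1f/f. The groups are far apart, and replicate 3 kept several times the level of replicate 2. The log2 difference was -3.17 (SE 0.59), which missed the threshold in edgeR (adjusted p = 0.0634); it passed in 6 of 18 other settings, with adjusted p values from 2.33e-66 to 0.198. Counts were summed over whole genes, so these values do not show which exons remained.

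Of the other receptors, Notch2 and Notch3 fell and Notch4 did not differ beyond its spread. Notch2 was at 97.1, 92.2 and 68.2 CPM in WT and at 53.3, 34.4 and 44.6 CPM in Notch1f/f. Each Notch1f/f library lay below each WT library, and the log2 difference was -0.96 (SE 0.19, edgeR adjusted p = 0.0418). Notch2 was called in 9 of 18 other settings. Notch3, the receptor of pericytes and smooth muscle, dropped from 115, 119 and 69.8 CPM to 15.3, 18.1 and 25.6 CPM, a log2 difference of -2.36 (SE 0.32, adjusted p = 0.0165). Notch3 is also on the list of mural cell markers described further on, and in bulk libraries fewer cells of a type and less RNA per cell cannot be told apart. Notch4, a receptor found mainly in endothelium, was at 374, 478 and 426 CPM in WT and at 575, 439 and 368 CPM in Notch1f/f, with the groups overlapping. Per kilobase of exon, mean levels in WT were 58.2 CPM for Notch1, 52.8 for Notch4, 12.5 for Notch3 and 7.96 for Notch2. The order in Notch1f/f was Notch4 at 57.1, Notch1 at 6.47, Notch2 at 4.09 and Notch3 at 2.43 CPM per kilobase, where the last 3 lay within a few CPM per kilobase of each other.

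None of the 5 ligands tested passed, and their median log2 difference was 0.06 beside 0.02 over all genes tested. Dll4, the main endothelial ligand, was at 365, 393 and 333 CPM in WT and at 327, 229.7 and 264 CPM in Notch1f/f. Every Notch1f/f value of Dll4 lay below the WT values, by 0.41 on the log2 scale (SE 0.16, edgeR adjusted p = 0.276). Jag1 differed by -0.17 and Jag2 by 0.38, and neither passed. The lists of 21 genes of receptor processing and 14 genes of the nuclear complex had 0 calls each, with medians of -0.10 and 0.05. Rbpj, the DNA-binding partner, was at 50.2, 48.6 and 47.9 CPM in WT and at 48.1, 43.7 and 48.8 CPM in Notch1f/f.

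Among 29 Notch targets tested, 3 fell and 1 rose, and the median log2 difference was -0.19. Those that fell were Notch3, Heyl and Efnb2, and Notch3 and Heyl are on the list of mural cell markers as well. Hes1, a repressor that answers Notch directly, was at 126, 79 and 139.7 CPM in WT and at 40.5, 36.1 and 79 CPM in Notch1f/f. Notch1f/f replicate 3 came close to the lowest WT library, and the log2 difference of -1.15 (SE 0.39) did not pass (edgeR adjusted p = 0.226). Heyl, a repressor of the Hey family that mural cells express, fell from 30.4, 21.3 and 15.7 CPM to 5.1, 4.34 and 9.24 CPM, a log2 difference of -1.85 (SE 0.38, adjusted p = 0.0482). Heyl passed in 10 of 18 other settings. Hey1, the family member more abundant here, was at 318, 395 and 265 CPM in WT and at 280.3, 174 and 207 CPM in Notch1f/f, and the groups overlapped.

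The arterial genes on the target list gave 1 fall. Efnb2, the ephrin that marks arterial endothelium (chromosome 8, 8667434 to 8711242, GRCm39), was nearly identical in the WT libraries at 1036, 1036 and 1069.6 CPM and was at 561, 355 and 587 CPM in Notch1f/f. The difference of -1.06 (SE 0.20, edgeR adjusted p = 0.0336) is large beside the spread of either group. Gja5, the arterial connexin 40, was at 62.6, 46.1 and 43.8 CPM in WT and at 18.3, 17.3 and 38.2 CPM in Notch1f/f, with a difference of -1.05 (SE 0.30) that did not pass (adjusted p = 0.134). Gja4, connexin 37, did not separate the genotypes and was at 241, 238 and 270.4 CPM in WT and at 221, 133 and 320.1 CPM in Notch1f/f. Over the 26 arterial genes tested, 0 rose and 1 fell, with a median of -0.24. The target list lost its lower calls without WT replicate 1, WT replicate 2 or Notch1f/f replicate 2, and kept 1 without WT replicate 3.

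Ccnd1, the cyclin D1 that carries cells from G1 towards S phase, rose among the listed targets. It was at 176, 149 and 185 CPM in WT and at 250.2, 435 and 349 CPM in Notch1f/f, a log2 difference of 1.02 (SE 0.19, edgeR adjusted p = 0.0351). Ccnd1 passed in 10 of 18 other settings. The target list was not split by whether Notch is known to raise or lower a gene, so its median gives no direction of Notch activity. Other targets had higher values that did not pass. Unc5b, a netrin receptor, was at 68.5, 68.5 and 74.7 CPM in WT and at 120.0, 165 and 125 CPM in Notch1f/f (adjusted p = 0.0663). Myc was at 7.28, 2.18 and 7.8 CPM in WT and at 4.83, 53.5 and 29.7 CPM in Notch1f/f, where replicate 1 stayed within the WT range (adjusted p = 0.237). Cdkn1a, which encodes the CDK inhibitor p21, was at 92.9, 72 and 103 CPM in WT and at 197, 269 and 130.4 CPM in Notch1f/f (adjusted p = 0.135).

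**Figure D2:**
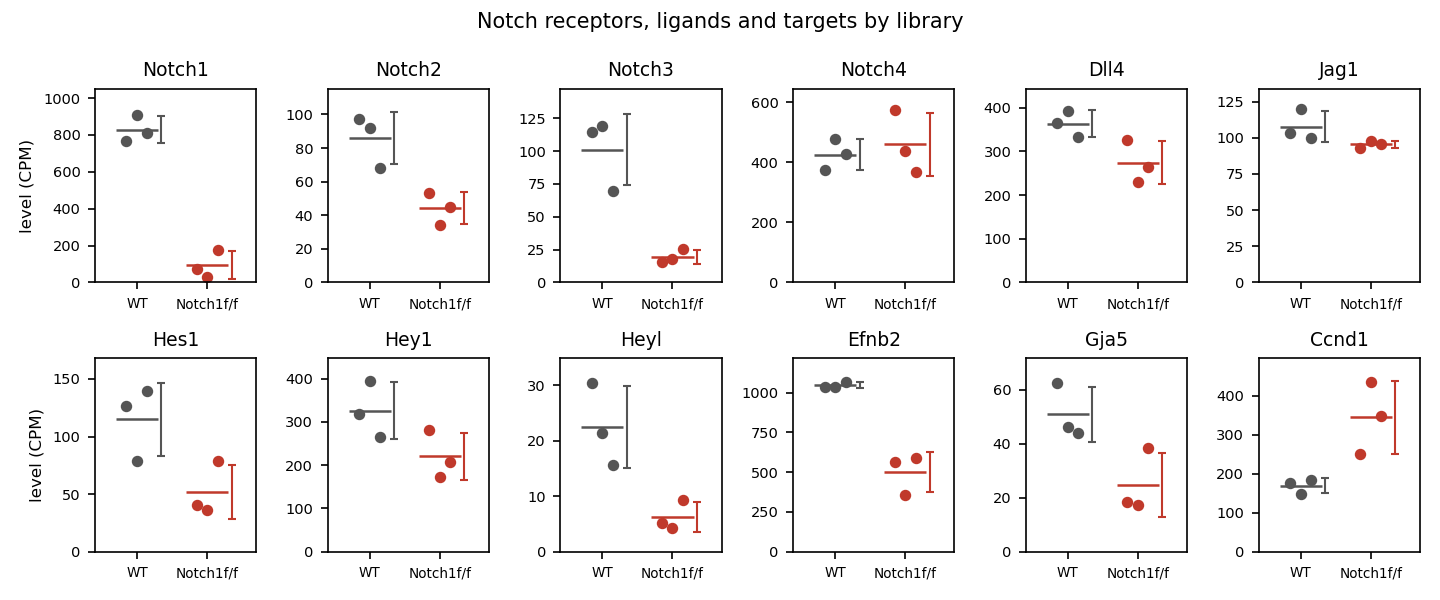
Each panel shows 1 gene of the Notch pathway with its level in CPM in the 3 WT libraries (grey) and the 3 Notch1f/f libraries (red); points are libraries, the long bar is the mean and the whiskers are the SD. Notch1, Notch2, Notch3, Heyl and Efnb2 show no overlap with Notch1f/f lower, Ccnd1 none with Notch1f/f higher, and Notch4 overlaps.

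Genes of mitosis formed the list with the most calls. Of 60 mitosis genes tested, 17 rose and 0 fell, 59 had a difference above 0, and the median log2 difference was 3.03. Over all genes tested, 51.7% had a difference above 0. Of the 60 genes, 13 had 0 counts in at least 1 of the 6 libraries, which makes their log2 differences uncertain. In 46 of the 60 every Notch1f/f library was above every WT library. The rise was uneven: replicate 1 was the lowest Notch1f/f library for each mitosis gene described here. Of 43 DNA replication genes, 4 rose and 0 fell, with a median of 0.64. The mitosis calls numbered 45 without replicate 1 of Notch1f/f, 2 without its replicate 2, and 0, 1 and 1 without WT replicates 1, 2 and 3; the median stayed between 2.56 and 3.51 in those fits. The fit by limma-voom called 0 mitosis genes and DESeq2 49. With only the 6 libraries compared, 6 mitosis genes were called, and 4 with a replicate block in those libraries.

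Many promoters of this list hold a short element called the CHR, with the letters TTTGAA, at which complexes that silence cell cycle genes in resting cells and activate them in dividing cells are known to bind. The sequences of 4 genes that rose are shown because the element can be read in each of them. They run from 250 bases before the start of the gene to 30 bases after it, 5′ to 3′ on the gene's strand, from RefSeq on build GRCm38.p6, and capitals mark TTTGAA or its reverse complement TTCAAA. Cdk1 lies at chr10:69352883-69353162, Mki67 at chr7:135716350-135716629, Cenpf at chr1:189688057-189688336 and Racgap1 at chr15:99651627-99651906, all on the minus strand.
Cdk1: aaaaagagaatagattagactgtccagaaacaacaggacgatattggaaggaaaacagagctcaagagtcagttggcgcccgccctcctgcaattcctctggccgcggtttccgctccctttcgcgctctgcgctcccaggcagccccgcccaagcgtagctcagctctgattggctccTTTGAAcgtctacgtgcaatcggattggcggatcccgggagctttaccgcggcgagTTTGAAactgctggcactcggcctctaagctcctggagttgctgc
Mki67: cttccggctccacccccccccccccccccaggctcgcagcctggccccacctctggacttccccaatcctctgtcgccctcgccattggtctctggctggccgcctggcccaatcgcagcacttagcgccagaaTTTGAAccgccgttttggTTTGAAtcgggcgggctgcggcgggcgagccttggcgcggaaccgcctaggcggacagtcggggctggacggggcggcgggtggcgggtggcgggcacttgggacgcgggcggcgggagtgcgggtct
Cenpf: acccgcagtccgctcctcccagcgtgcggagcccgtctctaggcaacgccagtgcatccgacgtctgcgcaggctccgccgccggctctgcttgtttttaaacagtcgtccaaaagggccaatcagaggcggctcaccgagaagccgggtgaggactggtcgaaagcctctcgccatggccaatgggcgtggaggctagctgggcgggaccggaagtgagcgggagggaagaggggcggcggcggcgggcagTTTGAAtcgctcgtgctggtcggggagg
Racgap1: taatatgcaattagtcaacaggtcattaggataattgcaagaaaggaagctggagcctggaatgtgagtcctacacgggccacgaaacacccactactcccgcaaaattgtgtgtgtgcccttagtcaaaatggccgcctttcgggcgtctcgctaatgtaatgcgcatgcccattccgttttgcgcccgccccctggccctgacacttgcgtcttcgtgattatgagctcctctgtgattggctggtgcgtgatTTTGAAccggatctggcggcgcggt

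In Cdk1 the matches began 71 and 15 bases before the start of the gene, and in Mki67 116 and 98 bases before it. Those of Cenpf and Racgap1 began 2 and 5 bases after the start. Windows of 300 bases, from 250 before to 50 after the start, were searched on both strands. Of the mitosis list, 49 genes matched the table with 51 windows, and 72.5% of these windows held the CHR letters, compared with 17.9% of all 32851 windows. Among mitosis genes that rose it was 11 of 13 windows, 84.6%. The share was 9.76% for the replication list, 16.2% for other genes that rose and 13.9% for genes that fell. The CCAAT box, read as CCAAT or ATTGG, which can share letters with the CHR, was in 72.5% of mitosis windows, 61% of replication windows and 37.4% of all windows. The core of the RBPJ site, TGGGAA or TTCCCA, was in 6 of 24 windows of the Notch target list, 25%, in 30.6% of windows of genes that fell and in 25.6% of all windows. A match of letters is a description of these windows and not a binding site.

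These 4 genes were taken from those called, so their values do not give the size of the rise over the whole mitosis list. Over that list, the WT libraries had summed levels between 245.8 and 268.5 CPM. Notch1f/f replicates 1, 2 and 3 reached sums of 410.6, 1059 and 1236 CPM. The values of the 4 genes follow. Mki67, the proliferation antigen Ki-67, was at 5.51, 7.18 and 5.96 CPM in WT and at 29.1, 138 and 184 CPM in Notch1f/f, a log2 difference of 4.23 (SE 0.66, edgeR adjusted p = 0.0468). Cdk1, the kinase that starts mitosis, was at 1.04, 0.769 and 0.408 CPM in WT and at 2.42, 25 and 17.3 CPM in Notch1f/f (log2 difference 4.33, SE 0.76, adjusted p = 0.0354). For both, replicate 1 lay above WT and well below the other Notch1f/f libraries. Cenpf, a kinetochore protein, went from 1.2, 1.92 and 1.38 CPM to 7.16, 27.5 and 60.0 CPM, a log2 difference of 4.40. Racgap1, needed for the cleavage of the cell body, went from 1.92, 2.56 and 2.14 CPM to 6.89, 13.2 and 24.2 CPM, a log2 difference of 2.74 (SE 0.42, adjusted p = 0.0169). In WT all 4 had single-digit CPM. Of 18 other settings, Mki67 was called in 6, Cdk1 and Cenpf in 7 each and Racgap1 in 13.

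Fewer replication genes than mitosis genes were called, and some did not separate the groups. Ccna2, cyclin A2, rose from 1.35, 1.79 and 1.33 CPM to 3.62, 9.57 and 14.8 CPM, a log2 difference of 2.64 (SE 0.47). The replication genes that rose were Cdc6, which loads the helicase, Dtl, an adaptor that marks replication proteins for destruction, Pole, the leading-strand polymerase, and Rrm2, a subunit of the enzyme that makes deoxynucleotides. Pole was at 2.29, 1.09 and 1.53 CPM in WT and at 4.43, 15 and 13.4 CPM in Notch1f/f, and Rrm2 at 1.14, 0.897 and 0.816 CPM and 2.24, 9.21 and 8.79 CPM. Their log2 differences were 4.21 for Cdc6, 4.74 for Dtl, 2.73 for Pole and 2.82 for Rrm2, with edgeR adjusted p values from 0.0291 to 0.0414. The sliding clamp Pcna, abundant in WT at 41.5, 34.4 and 53.8 CPM, was at 32, 54.5 and 53.9 CPM in Notch1f/f and did not separate the groups. Helicase subunit Mcm5 was at 12.5, 9.87 and 11.8 CPM and 10.5, 38.7 and 31.8 CPM, with replicate 1 inside the WT range.

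Values of leukocyte markers differed in the same direction as the dividing-cell genes. All 18 leukocyte markers tested had a difference above 0, with a median of 0.80, and 0 were called. Their summed level was 133 to 240.1 CPM in WT and 328 to 386.1 CPM in Notch1f/f, and Spi1, Cd48, Tyrobp and Cd53 had 0 counts in at least 1 of the 6 libraries. Ptprc, which encodes the CD45 that the sort excluded, was at 4.99, 2.95 and 0.408 CPM in WT and at 14.5, 4.96 and 1.58 CPM in Notch1f/f, with the groups overlapping. In Notch1f/f replicates 1, 2 and 3 the summed leukocyte level was 344.9, 328 and 386.1 CPM. The summed mitosis level was 410.6, 1059 and 1236 CPM. Replicate 3 was highest in both, while the lowest was replicate 2 for leukocyte markers and replicate 1 for mitosis genes. For DNMAML replicates 1, 2 and 3 the leukocyte sums were 476.4, 388.4 and 126.9 CPM and the mitosis sums 924.7, 975.2 and 833.4 CPM. The macrophage list had a median of 0.95 and the neutrophil list of 1.81, with summed levels of 157 to 875.1 and 8.27 to 34.15 CPM in WT and 215.5 to 399.4 and 30.4 to 59.5 CPM in Notch1f/f. Among the 14 macrophage markers Adgre1, Ccr2, Cx3cr1 and Ear2, and among the 11 neutrophil markers Acod1, Cxcr2, Csf3r, Clec4d, Ngp and S100a9, had 0 counts in at least 1 library. The part of these cells in the rise of mitosis genes was not tested. In DNMAML libraries Mki67 was at 122, 146 and 103 CPM and Cdk1 at 11.1, 8.59 and 10.2 CPM; the direct comparison of Notch1f/f with DNMAML gave log2 differences of -0.08 and 0.58 (adjusted p = 0.999 for both).

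Targets of p53, the factor that halts the cell cycle after damage, gave 2 rises among 22 tested and 0 falls, with a median of 0.47. Eda2r, a receptor of the TNF receptor family, was at 2.29, 3.97 and 3.98 CPM in WT and at 32.4, 32.1 and 15.9 CPM in Notch1f/f, a log2 difference of 2.97 (SE 0.40, edgeR adjusted p = 0.0116). Unlike the mitosis genes, its lowest Notch1f/f library was replicate 3. Trp53i11, which is on the sprouting list as well, went from 40.5, 25.4 and 31.5 CPM to 114, 324 and 132 CPM. Mdm2, the ligase that degrades p53, differed by 0.08.

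**Figure D3:**
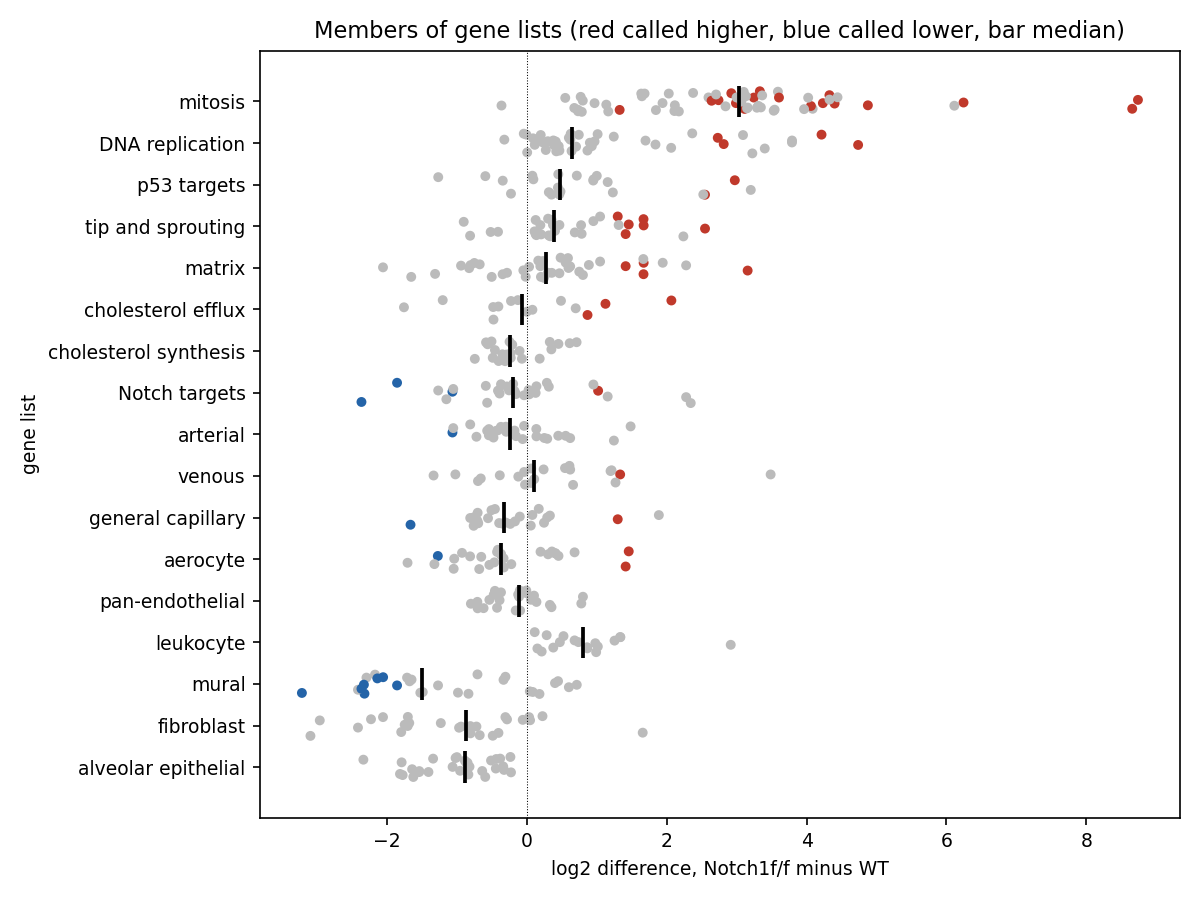
Each point is a tested member of a gene list, placed by its log2 difference, Notch1f/f minus WT; red points were called higher, blue points lower and grey points neither, and the black bar is the median of the list. Of the lists drawn, mitosis lies furthest right with a median of 3.03 and mural furthest left with -1.50, while the medians of the arterial, venous, capillary and pan-endothelial lists lie between -0.37 and 0.11.

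Several genes of sprouting vessels and of the basement membrane rose. On the list of 30 tip and sprouting genes, 6 rose and 0 fell, 26 had a difference above 0, and the median was 0.39. Of 38 matrix genes, 4 rose and 0 fell, with a median of 0.27. Col4a1, Col4a2 and Sparc stand on both lists. The sprouting list had 10 rises without replicate 1 of Notch1f/f, 4 without its replicate 2 and 2 without WT replicate 3, and it had 0 without WT replicate 1 or 2. On the matrix list 8 genes rose without replicate 1 of Notch1f/f, 2 without its replicate 2, 1 without WT replicate 3, and 0 without WT replicate 1 or 2.

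Collagen IV, the network-forming collagen of basement membranes, is a trimer whose common chains are encoded by Col4a1 and Col4a2. Both were among the most abundant genes that rose. Col4a1 was at 1736, 1617 and 2287 CPM in WT and at 4179, 8435 and 5343 CPM in Notch1f/f, a log2 difference of 1.67 (SE 0.28, edgeR adjusted p = 0.0242). Col4a2 was at 962, 914 and 1227 CPM and 2436, 4614 and 2816 CPM, again 1.67 (SE 0.26, adjusted p = 0.0196). In both the order of the Notch1f/f libraries was the same, with replicate 2 highest and replicate 1 lowest. The genes start head to head and read away from each other. The Col4a1 window, chr8:11312797-11313076 on the minus strand of GRCm38.p6, is shown because its last 38 bases, in capitals, also lie in the same window of Col4a2 on the plus strand, chr8:11312555-11312834.
Col4a1: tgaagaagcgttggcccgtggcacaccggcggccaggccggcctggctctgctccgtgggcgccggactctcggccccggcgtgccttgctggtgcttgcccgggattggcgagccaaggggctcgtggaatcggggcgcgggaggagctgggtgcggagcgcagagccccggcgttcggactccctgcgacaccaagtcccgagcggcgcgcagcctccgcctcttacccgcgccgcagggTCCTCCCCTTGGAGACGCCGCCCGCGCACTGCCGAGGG

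Reads at this overlap cannot be assigned by strand, since the recorded counting command set no strand. Col15a1, a collagen of vessel basement membranes (chromosome 4, 47208161 to 47313167, GRCm39), had the largest difference on the matrix list. It was at 14.6, 9.1 and 13.8 CPM in WT and at 85.6, 172 and 77.7 CPM in Notch1f/f, a log2 difference of 3.16 (SE 0.38, edgeR adjusted p = 0.0157). Sparc, a matrix protein that binds collagen, went from 1075, 804 and 1192 CPM to 1709, 3449 and 3020.0 CPM, a log2 difference of 1.41. Hspg2, the basement membrane proteoglycan perlecan, was at 140.3, 104 and 108 CPM and 394, 1086 and 227 CPM, with a wide spread within Notch1f/f, and did not pass (adjusted p = 0.140). Matrix genes of fibroblasts on the same list gave no call, among them Col1a1 at -0.80 and Col6a1 at -1.65 on the log2 scale.

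The cell surface genes that rose on the sprouting list were Cd34 and Aplnr. Cd34, a sialomucin of capillary and progenitor cells, was at 389, 329 and 482 CPM in WT and at 795, 1435 and 1066 CPM in Notch1f/f, a log2 difference of 1.46 (SE 0.21, edgeR adjusted p = 0.0160). Aplnr, the receptor of apelin and a marker of general capillary cells, was within a few CPM in WT, at 249, 242 and 249 CPM, and was at 474, 800.3 and 546 CPM in Notch1f/f (log2 difference 1.30, SE 0.20). Its ligand gene Apln, which marks tip cells and aerocytes, differed by 0.30 and overlapped between the genotypes. Vegfc and Angpt2, also on the list, were at -0.90 and -0.52 and did not pass. The VEGF receptors gave no call: Kdr was at 1958, 2184 and 2077 CPM in WT and at 1569, 1456 and 1792 CPM in Notch1f/f (log2 difference -0.37), and Flt1 differed by -0.39. All Notch1f/f libraries were below all WT libraries for both receptors.

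Adhesion and channel genes included large rises and falls. Pcdh17, a protocadherin, rose from 254, 376 and 306 CPM to 715, 963 and 775 CPM, a log2 difference of 1.39 (SE 0.19, edgeR adjusted p = 0.00964). Gja1, connexin 43, rose from 14.5, 10.5 and 19 CPM to 62.4, 84.9 and 40.6 CPM (log2 difference 2.10, SE 0.32). Pcdh18, another protocadherin, fell from 92.4, 94.2 and 63.8 CPM to 11.6, 8.68 and 18 CPM (log2 difference -2.71, SE 0.39). On the list of 22 junction genes 2 rose and 1 fell, and VE-cadherin and claudin 5 genes Cdh5 and Cldn5 were at -0.12 and -0.10. Of 28 ion channel genes 1 rose and 3 fell: Cacna1h, a T-type calcium channel, rose from 0.260, 0.0641 and 0.102 CPM to 7.97, 9.74 and 1.75 CPM, while Cacna1c, an L-type calcium channel, fell from 78.8, 57.8 and 51.8 CPM to 24.3, 19.4 and 25.8 CPM. Trpc1 and Kcnq5 fell too, by 2.47 and 2.56 on the log2 scale.

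Some cholesterol export genes rose without a matching move of their list. Of 14 genes of cholesterol efflux and the LXR response, 3 rose and 0 fell, yet 7 of 14 had a difference below 0 and the median was -0.06. Abca1, which passes cholesterol to apolipoprotein A-I (chromosome 4, 53030787 to 53159895, GRCm39), was at 73.3, 60.6 and 63.8 CPM in WT and at 207, 389 and 232 CPM in Notch1f/f, a log2 difference of 2.07 (SE 0.30, edgeR adjusted p = 0.0196). Scarb1, the HDL receptor SR-BI, went from 289, 324 and 274 CPM to 588, 737 and 608 CPM (log2 difference 1.12, SE 0.20, adjusted p = 0.0291). Abcg1, which passes cholesterol to HDL, went from 66.8, 95.6 and 87.9 CPM to 130.3, 178 and 149 CPM (log2 difference 0.87, SE 0.16, adjusted p = 0.0336). Gramd1b, which carries cholesterol from the plasma membrane to the endoplasmic reticulum and was named after its values were seen, rose from 25.1, 21.8 and 25.9 CPM to 57.2, 70.7 and 79.5 CPM (log2 difference 1.51, SE 0.19, adjusted p = 0.00825). It was called in each of the 18 other settings. The LXR gene Nr1h3, a nuclear receptor that activates Abca1 and Abcg1, was at -1.76 and did not pass (adjusted p = 0.119). Of 22 cholesterol synthesis genes 0 passed, 16 were below 0, and the median was -0.24. The 3 efflux calls were lost without any 1 WT library, and 1 remained without Notch1f/f replicate 2.

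**Figure D4:**
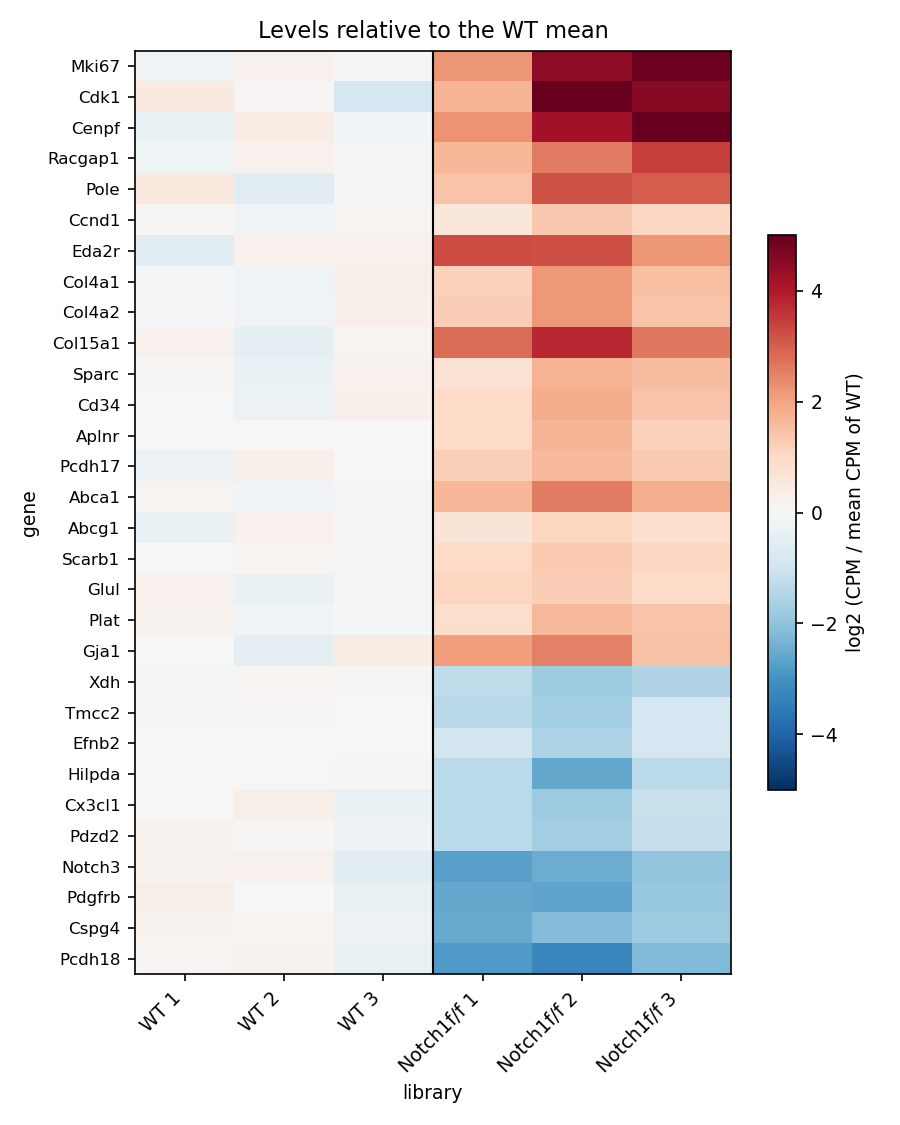
Colours give the log2 ratio of each library's CPM to the mean CPM of WT for 30 called genes (red above, blue below, limited to 5 either way), with WT replicates 1 to 3 at the left of the line and Notch1f/f replicates 1 to 3 at the right. WT columns are pale, and among the Notch1f/f columns replicate 1 is palest for mitosis genes such as Mki67 while replicate 2 is darkest for matrix genes such as Col4a1.

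Several of the other genes that fell had high levels in WT. Xdh, xanthine dehydrogenase (chromosome 17, 74190890 to 74257191, GRCm39), was at 878, 969 and 876 CPM in WT and at 375, 263 and 321 CPM in Notch1f/f, a log2 difference of -1.50 (SE 0.18, edgeR adjusted p = 0.00793). It was called in each of the 18 other settings. Pdzd2, a scaffold protein, fell from 816, 749 and 609 CPM to 288, 216 and 325 CPM, and Tmtc1 from 289, 295 and 285 CPM to 159, 109 and 146 CPM. Hilpda, which inhibits lipolysis at lipid droplets, fell from 145, 143 and 152 CPM to 57.2, 25 and 56.9 CPM (log2 difference -1.66, SE 0.27). Hyal2, a hyaluronidase held at the cell surface, fell from 378, 419 and 437 CPM to 219, 208 and 262 CPM (log2 difference -0.84, SE 0.14). Cx3cl1, the membrane-bound chemokine fractalkine, fell from 117, 144 and 93.2 CPM to 45.9, 33.7 and 54.5 CPM (log2 difference -1.40, SE 0.22). Hgf, the growth factor of epithelial cells, fell from 65.4, 55.4 and 42 CPM to 29.7, 29.2 and 31 CPM (log2 difference -0.86, SE 0.16). The groups did not overlap in these 7 genes, as in every called gene.

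Among genes of coagulation and fibrinolysis, 2 of 19 rose and 0 fell. Plat, tissue plasminogen activator, rose from 48.7, 38.2 and 41.1 CPM to 77.4, 131 and 114 CPM (log2 difference 1.33, SE 0.22, edgeR adjusted p = 0.0207). F2rl3, the thrombin receptor PAR4, rose from 0.832, 0.385 and 0.612 CPM to 5.1, 10.1 and 7.38 CPM (log2 difference 3.60, SE 0.64). Glul, glutamine synthetase, was on no list and rose from 307, 214 and 281 CPM to 565, 623 and 522 CPM, and the kinase gene Map4k4 rose from 421, 423 and 433 CPM to 654, 855 and 718 CPM. Bmp2, a growth factor of the BMP family, rose from 2.91, 0.641 and 3.16 CPM to 14.3, 19.5 and 13 CPM. It was the only gene called among 29 BMP and TGF-beta genes, and the Id genes that BMP signalling switches on, Id1 and Id3, were at -0.83 and -0.57 and did not pass.

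Lung capillaries hold aerocytes, large cells facing the gas exchange surface, and general capillary cells, which maintain the vessel. Of 27 aerocyte genes tested, 2 rose and 1 fell, 18 had a difference below 0, and the median was -0.37. Cd34 and Sparc were those that rose. Tmcc2 fell from 619, 671 and 644 CPM to 249.6, 199 and 353 CPM (log2 difference -1.27, SE 0.21, edgeR adjusted p = 0.0196). The defining aerocyte genes Car4 and Ednrb were at 497, 706 and 599.9 CPM and 415, 495 and 420.1 CPM in WT and at 479, 361 and 514 CPM and 202, 139 and 359 CPM in Notch1f/f. For Ednrb the groups did not overlap and the difference of -0.93 (SE 0.41) did not pass; for Car4 they overlapped. Of 24 general capillary genes 1 rose (Aplnr) and 1 fell (Hilpda), with a median of -0.32. Of 21 venous genes 1 rose, Plat, with a median of 0.11, and 0 of 14 lymphatic genes passed. The 25 pan-endothelial markers had 0 calls and a median of -0.11, with summed levels of 38840 to 43450 CPM in WT and 30190 to 37430 CPM in Notch1f/f.

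Several markers of mural cells fell. Of 28 tested, 7 fell and 0 rose, 17 had all Notch1f/f libraries below all WT libraries, and the median was -1.50. Pdgfrb, the receptor by which pericytes are recruited, was at 251, 203 and 156 CPM in WT and at 34.1, 33 and 54.5 CPM in Notch1f/f (log2 difference -2.33, SE 0.32, edgeR adjusted p = 0.0192). Cspg4, the pericyte proteoglycan NG2, went from 33.2, 31.8 and 24.2 CPM to 5.19, 6.64 and 8.46 CPM (log2 difference -2.14, SE 0.32). Gucy1a1, a subunit of the nitric oxide receptor, went from 309, 308 and 207 CPM to 42.4, 43.2 and 79.3 CPM (log2 difference -2.32, SE 0.37). The other 4 were Higd1b, Fam162b, Notch3 and Heyl. Not every marker moved this way: Rgs5, a pericyte regulator of G protein signalling, was at 13.4, 13.3 and 16.2 CPM in WT and at 20.9, 21.3 and 23.1 CPM in Notch1f/f, and the contractile genes Acta2 and Myh11 were at -0.31 and -0.98 on the log2 scale, none of which passed. The summed level of the list was 2374 to 3303 CPM in WT and 1392 to 1864 CPM in Notch1f/f, and Cnn1 alone had 0 counts in a library. Calls of the list were 0 without WT replicate 1, WT replicate 2 or Notch1f/f replicate 2, 4 without WT replicate 3, and 5 to 12 without each of the others.

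Marker values of other lung cells that the sort could carry over were lower as well, with no call. Of 26 fibroblast markers 22 were below 0, with a median of -0.87 and summed levels of 3681 to 7394 CPM in WT and 3222 to 4140 CPM in Notch1f/f; Wnt2, Scara5 and Lum had 0 counts in at least 1 library. All 29 alveolar epithelial markers were below 0, with a median of -0.89. Their summed levels were 3037 to 7601 CPM in WT and 2172 to 3586 CPM in Notch1f/f, which overlap. The surfactant gene Sftpc was at 702, 169 and 1876 CPM in WT and at 65.9, 177 and 552 CPM in Notch1f/f, so single libraries of 1 genotype differed by more than the genotypes did. In DNMAML the mural median against WT was -0.17 and the fibroblast median 0.19. Pdgfrb was at 193, 90.2 and 170.1 CPM there, and its direct difference between Notch1f/f and DNMAML was -1.90 (SE 0.32, adjusted p = 0.254), which did not pass. How far carry-over of other cells contributed to the genes that fell was not tested.

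Notch1f/f was tested directly against DNMAML as well. This called 4 genes (0.0205% of genes tested), and all 4 also differed from WT. Cmtm8, a membrane protein of the CMTM family (ENSMUSG00000041012, chromosome 9, 114618413 to 114673224, GRCm39), was at 6.76, 5.00 and 7.85 CPM in WT, at 7.62, 10.4 and 8.00 CPM in DNMAML and at 35.2, 29.9 and 42.3 CPM in Notch1f/f. It rose by 2.45 against WT (SE 0.24, edgeR adjusted p = 0.00359) and by 2.05 against DNMAML (SE 0.24, adjusted p = 0.0101). Rprl3, annotated as a ribozyme gene, was at 11, 7.31 and 6.93 CPM in WT and at 4.93, 14.5 and 11.8 CPM in DNMAML and had 0 counts in each Notch1f/f library. Against a floor of 3 counts per library it was 58.0-fold lower than in WT, which is no strict bound, since many fragments may enter as a pair of counts. Its near-identical copies make the value uncertain too.

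The last pair is mt-Nd3, a subunit of respiratory complex I encoded in mitochondrial DNA, and Gm28438, a pseudogene on chromosome 1 that resembles it. mt-Nd3 was at 1.72, 1.03 and 2.5 CPM in WT, at 3.21, 1.3 and 4.46 CPM in DNMAML and at 54.2, 79.8 and 71 CPM in Notch1f/f. Gm28438 was at 176, 139 and 234 CPM, 280.4, 212 and 365 CPM and 38, 51.7 and 47.6 CPM in the same order. Against WT, mt-Nd3 differed by 5.27 on the log2 scale (SE 0.47, edgeR adjusted p = 0.00359), and Gm28438 was lower (edgeR adjusted p = 0.00794). Opposite moves of a gene and its copy can be given as a share: mt-Nd3 took 0.963%, 0.73% and 1.06% of their summed level in WT. The share was 1.13%, 0.609% and 1.21% for DNMAML libraries and reached 58.8%, 60.7% and 59.9% for Notch1f/f libraries. The sum itself was 140 to 236 CPM in WT and 92.2 to 132 CPM in Notch1f/f. So the share was nearly constant within each genotype while the summed level of the pair did not rise. The 12 other mitochondrially encoded genes gave 0 calls. Values of the pair are uncertain, since reads that fit both places could be assigned to either. Whether the mitochondrial sequence differed between the mice, which could shift that assignment without a change in RNA level, was not tested.

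**Figure D5:**
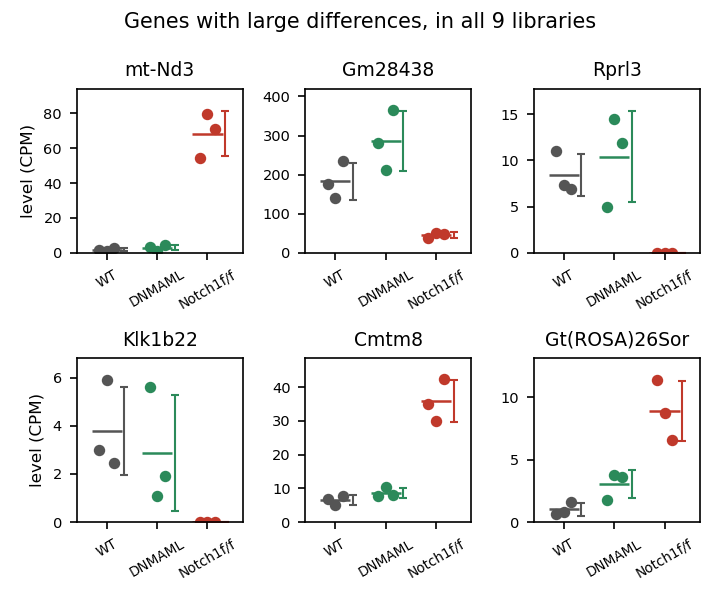
Each panel shows a gene in CPM in all 9 libraries, WT in grey, DNMAML in green and Notch1f/f in red; points are libraries, the long bar is the mean and the whiskers are the SD. mt-Nd3 and Cmtm8 are high and Gm28438 and Rprl3 low in Notch1f/f alone, while Gt(ROSA)26Sor is highest in Notch1f/f and has intermediate values in DNMAML.

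No other gene passed the direct test, and values of the 2 genotypes are given side by side. Both comparisons use the same WT libraries. DNMAML against WT gave 1 call (0.00513%). Col4a1 differed from WT by 1.67 in Notch1f/f and 0.81 in DNMAML, Cd34 by 1.46 and 0.98, Abca1 by 2.07 and 0.78, and Efnb2 by -1.06 and -0.56. For Pag1, a membrane adaptor that recruits the kinase Csk, the values were -2.44 and -0.54, and for Xdh -1.50 and -0.93. Direct adjusted p values for these 6 genes ran from 0.138 for Pag1 to 0.770 for Cd34. Gt(ROSA)26Sor, the noncoding RNA of the locus widely used for transgenes, was named after its values were seen. It was at 0.624, 0.769 and 1.63 CPM in WT, at 1.76, 3.79 and 3.62 CPM in DNMAML and at 11.4, 8.72 and 6.6 CPM in Notch1f/f, and rose by 3.13 against WT (SE 0.52, edgeR adjusted p = 0.0207). The annotation names it antisense, and without strand its reads cannot be told apart from those of a gene on the other strand.

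The surroundings of Notch1 on chromosome 2 were examined too. Within 5 Mb of the start of Notch1, 179 genes were tested, their median log2 difference was 0.01, and 2 were called. Pkn3, a protein kinase, rose from 73.3, 78.6 and 87.4 CPM to 218, 202 and 141 CPM (log2 difference 1.23, SE 0.22). Gle1, an mRNA export factor, fell from 81, 86.4 and 76.6 CPM to 55.3, 50.3 and 56.8 CPM (log2 difference -0.59, SE 0.12). Over all genes tested, 0.836% were called.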

How the data were processed

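The deposited file is one table of raw read counts by gene, in whole numbers. Counting used featureCounts 2.0.1 with Ensembl annotation 107 on GRCm39, per the file headers. STAR 2.7 and the build mm10 are named in the submitters' processing notes, so the builds differ. The recorded command sets no strand, read-pair or multi-mapping option, per the file headers. All libraries were prepared in 1 batch with a strand-specific kit, per the labels' protocols. The same table holds the exon length of each gene, computed by the authors' counter, which was used only for levels per kilobase. Between 76.6% and 89% of counts below 200 in a library were even, so many fragments may enter as a pair of counts. Floors address counting error only, and a floor of 3 counts may be too low where fragments enter as pairs.

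Symbols were found for 52073 of 56748 gene identifiers; genes without one took 0.891% to 1.3% of the counts of a library. edgeR 4.0.16 in R 4.3.3 tested 19486 genes kept by filterByExpr in all 9 libraries, with TMM scaling, a robust quasi-likelihood fit, genotype as the only term and Benjamini-Hochberg adjustment over all genes; calls have an adjusted p below 0.05. SE is the absolute log2 difference divided by the square root of F and restates the test. On simulated counts for 18515 genes of this comparison, with 200 changed, 22% of 2-fold and 57% of 4-fold changes were recovered, with 5 false calls of 84. Alternatives were DESeq2 1.42.0, limma-voom (limma 3.58.1), other scalings and filters, 6 libraries only, a replicate block and leaving out each library. The 59 gene lists hold 1172 genes, 1104 of them tested; they were described by counts and medians without a set test. The genes compared, the lists and the rule for named genes were chosen with earlier results of these data known. That rule takes tested Notch receptors, ligands and targets; the 10 largest log2 and CPM differences each way among called genes of at least 1 CPM whose groups do not overlap and whose symbol is not a clone or predicted-gene name; up to 5 called members of each list or, with none, its 2 most abundant; called genes within 5 Mb of Notch1; and those also called against DNMAML. Other genes given with values were named after their values were seen. Promoter windows came from RefSeq (GRCm38.p6), matched by symbol for 124 of the called genes.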

Additional observations from a re-analysis of the deposited data

How the results depend on the processing

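The counts of calls depended strongly on the method. Against 100 higher and 63 lower genes, DESeq2 called 550 and 517, limma-voom 36 and 33, the fit without a filter on low counts 664 and 751, and the replicate block 130 and 149 in 9 libraries and 50 and 42 in the 6 libraries compared. Upper quartile scaling gave 135 and 86, RLE scaling 103 and 69, a filter of 1 CPM in 3 libraries 117 and 72, and the 6 libraries without a block 91 and 82. Leaving out each library gave 8 to 369 higher and 5 to 161 lower genes. Of the 163 genes called, 11 were called in all 18 alternatives (Ces2e, Cmtm8, Gm28438, Gramd1b, Mpzl1, mt-Nd3, Nr5a2, Pag1, Sult1a1, Xaf1 and Xdh) and 100 in at least 12. Of the genes followed, 0 reversed, where a reversal is a change of sign with a call in the main fit or the alternative. For the called genes this was nearly certain beforehand, since the groups of each did not overlap. Genes without a call could change sign uncounted: Notch4 ran from -0.08 to 0.25 on the log2 scale and Gja4 from -0.50 to 0.12. Genes called against both WT and DNMAML numbered 4, with 153 by DESeq2, 566 without a filter and 2 to 30 when a library was left out. The median of the fibroblast list ran from -2.04 to -0.44 and that of the leukocyte list from 0.34 to 1.34 over the fits without 1 library. The cause of these shifts was not tested.

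The values gave no sign that replicate numbers pair WT with Notch1f/f libraries, and 3 libraries per genotype cannot exclude such pairing. Deviations from the group means correlated at -0.13, -0.02 and 0.19 for the same number and from -0.31 to 0.35 for different numbers. The value of 0.35 was for WT replicate 2 and Notch1f/f replicate 1. The replicate block is therefore given as counts alone; 141 of the 163 genes were also called with the block in 9 libraries and 56 with it in 6. In the simulation, with 200 changed genes, 22% of 2-fold changes were recovered. Its number of changed genes was set and its counts lacked the excess of even values, so the rate in the real data is not known.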

Other observations

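Further lists had few or no calls. Of 30 ribosomal protein genes 29 were above 0 in Notch1f/f, with a median of 0.30 and 0 calls, and the groups overlapped for each. Of 18 antigen presentation genes 16 were below 0, with a median of -0.18. The interferon list had a median of 0.00 over 34 genes with 1 call, Xaf1, which rose from 66.3, 63.5 and 68.1 CPM to 159.6, 127 and 125 CPM (log2 difference 1.06, SE 0.13, edgeR adjusted p = 0.00794). Of 26 Wnt genes 19 were below 0, with a median of -0.47. Fzd1, a Wnt receptor, fell from 30.3, 24.9 and 22.5 CPM to 6.89, 4.78 and 9.81 CPM (log2 difference -1.86, SE 0.36). Axin2, a target of Wnt signalling, was at 47.1, 45.2 and 39.8 CPM in WT and at 17.3, 9.34 and 26.7 CPM in Notch1f/f and did not pass. Of 7 angiopoietin and Tie genes 6 were below 0, with a median of -0.58 and 0 calls. The immediate early gene Fos was at 2006, 319 and 1229.7 CPM in WT and at 495, 1307 and 1259 CPM in Notch1f/f, and 0 of the 22 immediate early genes tested separated the genotypes.

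Several called genes lay on no list; those given here, apart from Spp1 and Klk1b22, were picked after their values were seen. Nr5a2, a nuclear receptor also called LRH-1, rose from 8.84, 4.49 and 5.3 CPM to 37, 64.3 and 32.1 CPM (log2 difference 2.84, SE 0.34, edgeR adjusted p = 0.00794). Fscn1, the actin-bundling protein fascin, rose from 26.1, 16.9 and 33.2 CPM to 91.7, 309.6 and 202 CPM (log2 difference 2.98, SE 0.45), and Vwa1, a matrix protein that binds perlecan, from 2.55, 2.31 and 5.35 CPM to 29.3, 97.8 and 34.3 CPM. Sema3b, a secreted semaphorin, rose from 18.3, 11.5 and 23 CPM to 42.8, 46 and 50.1 CPM and was at 18.5, 17.9 and 19 CPM in DNMAML; the direct difference of 1.32 did not pass (adjusted p = 0.166). Sult1a1, a sulfotransferase, fell from 50.5, 59.8 and 41.4 CPM to 14, 8.15 and 11.6 CPM (log2 difference -2.17, SE 0.26, adjusted p = 0.00793). Ptch1, the hedgehog receptor and a target of that pathway, fell from 124, 114 and 102 CPM to 71.1, 60.4 and 61.2 CPM (log2 difference -0.82, SE 0.14). Spp1, which encodes osteopontin, fell from 29.3, 43.1 and 24 CPM to 6.62, 6.29 and 6.09 CPM (log2 difference -2.34, SE 0.35). Klk1b22, a kallikrein with near-identical relatives, had 0 counts in each Notch1f/f library and was 26.1-fold lower than in WT against a floor of 3 counts per library. Gm8281 had 0 counts in each WT library and was 40.9-fold higher by the same floor. Both folds are uncertain and no strict bounds, because copies could share their reads and the floor takes each count as a separate fragment.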
